A study of Saccharomyces cerevisiae with 12 samples.

Results

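The strain by Congo Red interaction asks, gene by gene, whether loss of Gcn5 changes the response of yeast to a cell wall stress. It is the change with Congo Red in the gcn5 mutant minus the change with Congo Red in wild type, on the log2 scale. A value below 0 means that a rise was smaller, or a fall deeper, in the mutant. All 12 arrays of the study enter it, 3 for each of 4 groups. Of the 5716 probe sets on the array, the 5498 with 1 gene symbol were taken. They gave 5449 genes, and 5345 of these were bright enough to test (over log2 4 on at least 3 of the 12 arrays).

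The cells were Saccharomyces cerevisiae of the haploid laboratory background BY4741, a MATa strain auxotrophic for histidine, leucine, methionine and uracil, grown in YPD, a rich glucose medium. The groups were wild type untreated, wild type with Congo Red, gcn5 mutant untreated and gcn5 mutant with Congo Red. Cultures were split before treatment. Congo Red was added to a portion at 30 µg/ml and left for 3 h, and the other portion stayed without it. Arrays of a strain with the same replicate number were taken as the parts of a culture, which the labels do not state. On that reading each strain has 3 cultures with a treated and an untreated array each. The labels name the second strain only as a gcn5 mutant and do not say how many isolates were used. They call the samples biological.

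Congo Red binds chitin and glucan in the wall and disturbs its assembly. Sensors in the plasma membrane then activate the GTPase Rho1, which acts through protein kinase C and a MAP kinase cascade that ends in Slt2. Slt2 acts on the transcription factor Rlm1, whose targets include genes for wall proteins and wall enzymes and SLT2 itself. Gcn5 acetylates histones as the catalytic subunit of SAGA and ADA, coactivators that work at the promoters of many stress-induced genes.

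GCN5 (YGR252W) lay between log2 8.13 and 8.33 on the 6 wild type arrays and between 3.02 and 4.08 on the 6 mutant arrays. The strains did not overlap. All 6 markers of MATa cells, among them the alpha-factor receptor gene STE2, were read above log2 6 on all 12 arrays, and their mean level was 10.62 to 11.76 on the wild type arrays and 8.79 to 9.83 on the mutant arrays. The 4 markers of alpha cells had mean levels of 5.36 to 5.78 and the 10 of sporulating diploids 5.38 to 5.95 over all arrays. Highest among the sporulation markers were IME2 at 6.57 to 8.39, NDT80 at 5.97 to 7.59, IME1 at 6.18 to 7.37 and SPS4 at 4.80 to 7.36. Of the alpha cell markers MF(ALPHA)1 stayed below log2 4 on every array, while STE3 read 4.81 to 5.53, MF(ALPHA)2 4.65 to 5.81 and the alpha-agglutinin gene SAG1 7.92 to 8.45 over both strains. The median of an array was between 8.98 and 9.05. Both arrays of gcn5 culture 3 lay farther from their group means than any other, with a root mean square deviation over genes of 0.293 untreated and 0.313 with Congo Red against 0.147 to 0.228 on the other 10. The iron-regulated gene TIS11, for example, was at 12 and 11.88 in that culture, between 8.42 and 9.55 in gcn5 cultures 1 and 2, and at 10.79 and 11.05 in wild type culture 3. Because cultures were split before treatment, the interaction was fitted with the culture as a block. This compares each treated array with the untreated array of the same culture, and both parts of gcn5 culture 3 deviated together.

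All of the genes that passed the interaction in the main fit, with the culture as a block, responded less to Congo Red in the gcn5 mutant than in wild type. With adjusted p under 0.05 (limma, Benjamini-Hochberg over 5345 genes), 30 genes passed the interaction, 0.561% of those tested. In 26 of them (0.486%) a rise in wild type was smaller or missing in the mutant, and in the other 4 (0.0748%) a fall in wild type was smaller or missing. No gene that passed in this fit had a larger change in the mutant than in wild type. With a trend in limma's prior variance, however, CWP1 and PRM5 passed with larger changes in the mutant. At an unadjusted p under 0.05 there were 849 genes (15.9%), 513 with an interaction below 0 (9.6%) and 336 above 0 (6.29%). The 3 mutant changes lay wholly outside the range of the 3 wild type changes for all 30 genes, as they did for 22.6% of all genes tested. A fit without the culture block passed 3 genes, BAG7, YPL088W and HAL1, with 310 at an unadjusted p under 0.05. Arrays with the same number also deviated together across the strains in 11 of 12 pairs, with correlations from -0.084 to 0.551, against -0.466 to 0.086 for different numbers. With that number as the block in place of the culture, 7 genes passed: AFB1, BAG7, HAL1, KTR2, RTA1, SPI1 and YPL088W. The other 23 passed only with the culture in the fit and not with the number alone, among them GSC2 (limma adjusted p = 0.184), APE1 (0.314) and, at 0.0748 each, KDX1, SLT2, CRG1 and SDA1. Without 1 culture in turn the count was 11, 3 and 12 (wild type 1, 2 and 3) and 11, 8 and 33 (gcn5 1, 2 and 3).

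**Figure D1:**
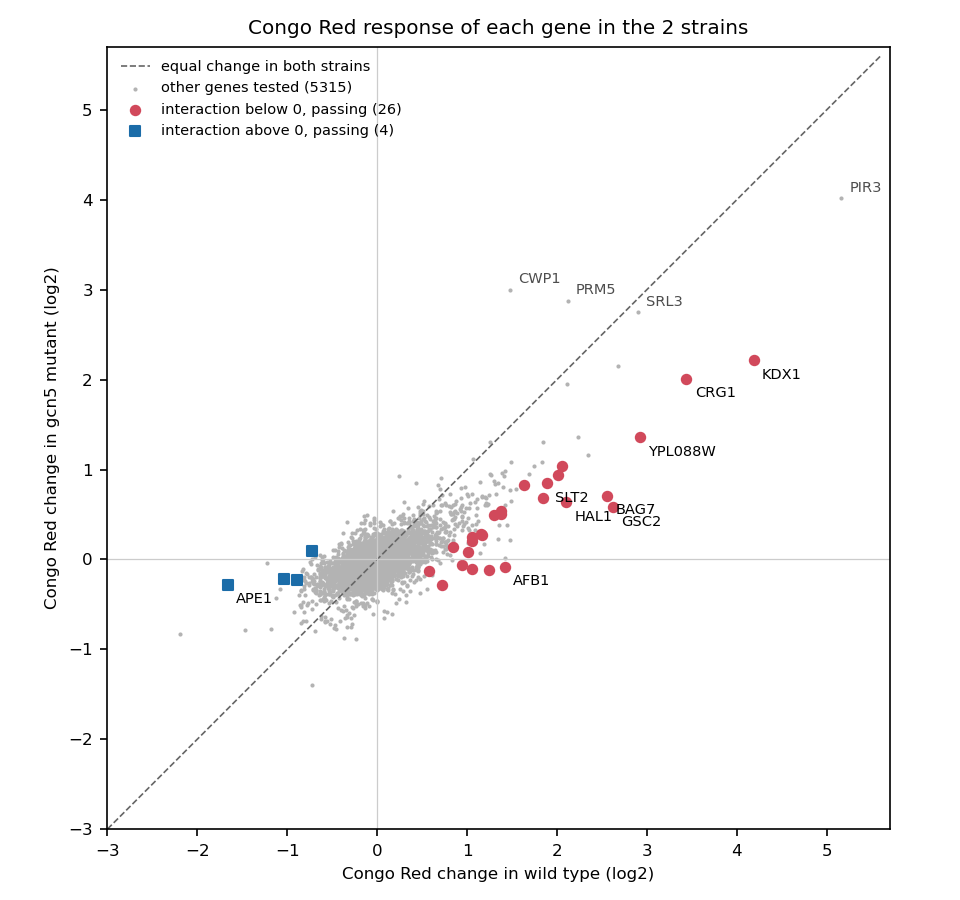
Change with Congo Red in wild type (x axis, log2) against the change in the gcn5 mutant (y axis, log2) for 5345 genes, each the mean of 3 cultures; the dashed line marks equal change. The 26 genes with a passing interaction below 0 (red circles) lie under the line at wild type rises of 0.58 to 4.19, and the 4 above 0 (blue squares) lie over it at wild type falls; CWP1 and PRM5 lie over the line among the rises but did not pass.

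The 26 weaker rises had a median change of 1.38 in wild type and 0.50 in the mutant. All 26 also passed as rises in wild type, where 23.8% of genes passed (12.3% as rises), and 14 of them as rises in the mutant, where 3.97% passed (2.81% as rises). Because the interaction uses the arrays of both strains, neither of these counts is independent of the choice of genes. The same holds for the mutant shares and strain gaps that follow. The mutant change was between -40.2% and 58.4% of the wild type change, with a median of 25.9%. In 6 of the 26 the mutant change was below 0, although none of these 6 passed as a fall. The strain gap in level was larger with Congo Red than without it for 26 of the 30 genes. The exceptions were CRG1, YPS6, IAH1 and SDS24, whose untreated level was higher in the mutant by 0.85, 1.04, 0.66 and 0.55.

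**Figure D2:**
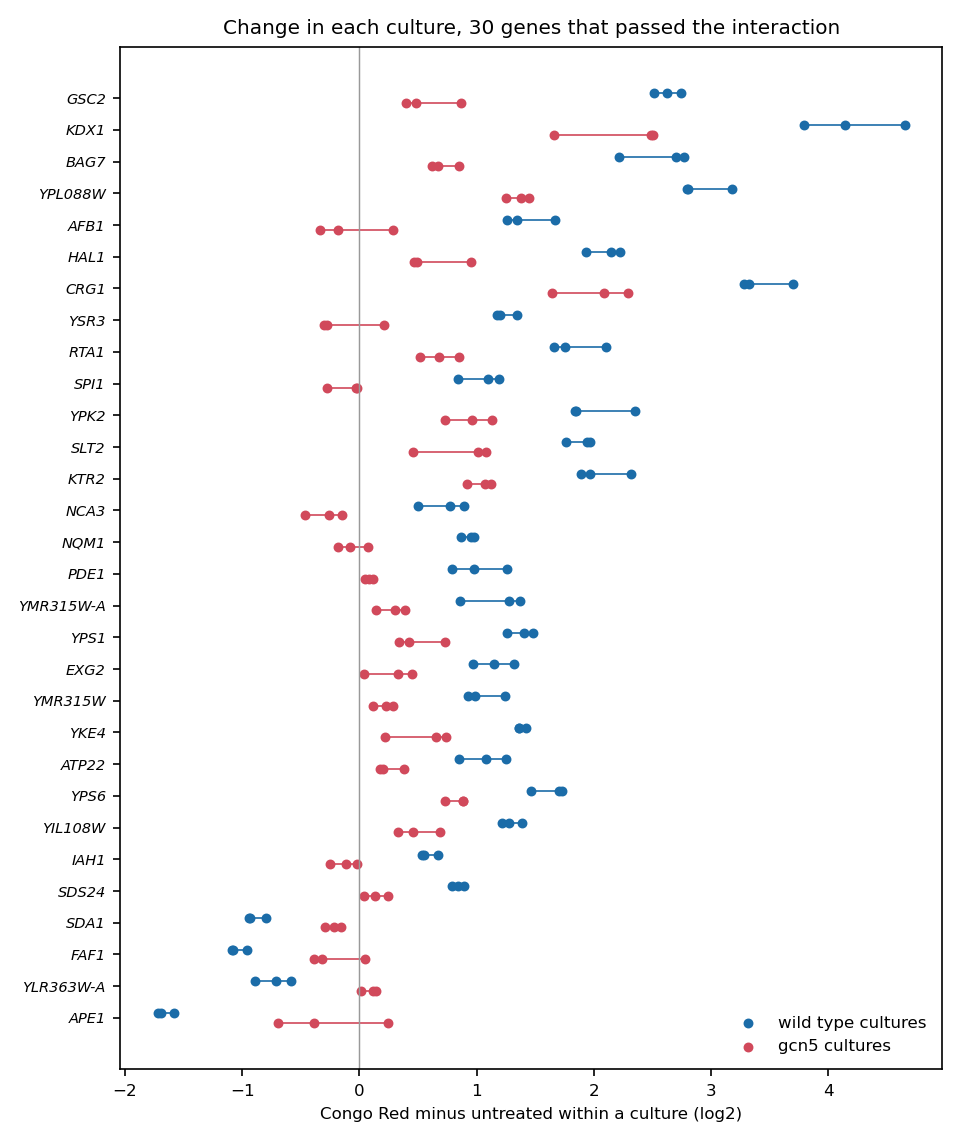
Change with Congo Red within each of the 3 wild type cultures (blue) and 3 gcn5 cultures (red) for the 30 genes that passed, ordered by interaction (x axis, log2; lines join the lowest and highest culture). The 2 strains do not overlap for any of the 30; the spread over cultures of a strain ranged from 0.06 to 0.86 in wild type (widest for KDX1) and from 0.07 to 0.92 in the mutant (widest for APE1).

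Among the regulators of the pathway, 3 genes rose less in the mutant. BAG7 (YOR134W) encodes a GTPase-activating protein that switches Rho1 off. It read 4.28, 3.94 and 3.86 in untreated wild type cultures 1, 2 and 3, and 6.49, 6.71 and 6.55 in the same cultures with Congo Red. Mutant arrays read 4.09, 3.99 and 4.19 untreated and 4.76, 4.84 and 4.81 with Congo Red. All 6 untreated arrays were near the floor, and with Congo Red the strains were separated by more than the spread within either. The interaction was -1.85 ± 0.16 (SE, n = 3 cultures per strain; 95% interval -2.21 to -1.48, limma adjusted p = 0.00274), and -1.78 ± 0.14 with values under log2 4 set to 4 (limma adjusted p = 0.00206). SAC7, the paralogue of BAG7 with the same activity, changed by 0.35 in wild type and 0.08 in the mutant, with an interaction interval of -0.58 to 0.05.

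SLT2 (YHR030C), the MAP kinase gene, stood at 9.80, 9.87 and 9.88 in untreated wild type and rose to 11.74, 11.63 and 11.85. The mutant started at 9.61, 9.69 and 10.25 and reached 10.62, 10.77 and 10.71. Untreated arrays of the strains overlapped, treated arrays did not, and mutant culture 3 started highest and rose least. The interaction was -1.04 ± 0.17 (SE; limma adjusted p = 0.0413), and with arrays centred on their medians it no longer passed. KDX1 (YKL161C), the paralogue of SLT2, had the largest wild type change of the 30, from 6.16, 6.31 and 6.37 to 10.30, 10.10 and 11.02, an 18.3-fold rise. The mutant went from 6.89, 6.93 and 7.16 to 9.39, 9.42 and 8.83, a 4.65-fold rise. It was thus higher in every untreated mutant array and lower in every treated one, with an interaction of -1.98 ± 0.27 (SE; limma adjusted p = 0.0234).

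The other 4 genes of the protein kinase C and MAP kinase cascade did not pass, and 2 of the list's 6 genes rose in each strain, with median changes of -0.03 in wild type and 0.07 in the mutant. No gene passed among 13 sensors and upstream regulators or 9 transcription factors of the pathway. RLM1, the factor gene, read 7.93, 8.0 and 8.21 in untreated wild type and 9.08, 9.24 and 9.47 with Congo Red, against 8.33, 8.44 and 8.54 and then 9.03, 9.15 and 8.94 in the mutant. The changes of the strains did not overlap, with means of 1.22 and 0.60, and the interaction was -0.62 (95% interval -0.89 to -0.35) at an adjusted p = 0.067 (limma). The sensor genes MID2 and MTL1 had interactions of -0.34 (-0.59 to -0.08) and -0.39 (-0.67 to -0.12). Among 5 phosphatases of MAP kinases none passed. MSG5 and PTP2, which counteract Slt2, had interactions of -0.84 (-1.19 to -0.49) and -0.48 (-0.73 to -0.22) while the median of the list was 0.10 and lay between -0.06 and 0.15 without 1 culture.

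Genes for enzymes that build or reshape the wall gave the smallest p-value of all. GSC2 (YGR032W, also known as FKS2), the stress-induced catalytic subunit of glucan synthase, went from 9.15, 9.51 and 9.35 to 11.77, 12.02 and 12.10 in wild type, a 6.16-fold rise. In the mutant it went from 9.37, 9.52 and 10.71 to 9.77, 9.99 and 11.58, a 1.5-fold rise. Mutant culture 3 was more than 1 log2 unit above the other mutant cultures before and after treatment, so the levels of mutant arrays were widely spread while the changes were not. The interaction was -2.04 ± 0.14 (SE; 95% interval -2.37 to -1.71, limma adjusted p = 0.00149), whereas its adjusted p was 0.556 without a block and 0.184 with the replicate number as the block. GSC2, BAG7 and YPL088W were the 3 genes that passed in all 6 fits that left out 1 culture.

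EXG2 (YDR261C), an exoglucanase gene, read 8.87 to 9.09 untreated and 9.92 to 10.23 with Congo Red in wild type, and 9.07 to 9.13 and then 9.10 to 9.58 in the mutant. Of 26 genes of glucan synthesis and remodelling, 2 passed with an interaction below 0, 0 above it and 24 did not pass; the median interaction was -0.12, beside -0.02 over all genes tested. KTR2 (YKR061W), a mannosyltransferase gene, rose from 8.15, 7.97 and 7.82 to 10.04, 9.94 and 10.15 in wild type. The mutant rose from 7.67, 7.6 and 7.90 to 8.74, 8.72 and 8.82. The mutant thus made 50.3% of the wild type change on the log2 scale, and treated arrays of the strains were more than 1 unit apart (interaction -1.02 ± 0.14, SE; limma adjusted p = 0.0218). It was the 1 passing gene of 26 in protein mannosylation, a list with a median interaction of -0.04.

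The yapsins are aspartic proteases anchored at the cell surface that process wall proteins. YPS1 (YLR120C) read 9.50, 9.65 and 9.78 untreated and 10.97, 10.91 and 11.17 with Congo Red in wild type. Its mutant values were 9.21, 9.47 and 10.20 and then 9.63, 10.20 and 10.54, so no mutant culture reached the lowest treated wild type array. YPS6 (YIR039C) rose from 7.0, 7.51 and 7.11 to 8.72, 8.98 and 8.81 in wild type. In the untreated mutant it was already at 8.32, 8.22 and 8.19, above every untreated wild type array, and it rose to 9.05, 9.10 and 9.07. The smaller rise of YPS6 thus ended at a slightly higher level than in wild type. A further yapsin gene, YPS3, did not pass. It rose by 2.68 in wild type and 2.15 in the mutant, and the 95% interval of the difference was -0.99 to -0.07.

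Among 28 mannoproteins of the wall only SPI1 (YER150W), a wall protein gene of the general stress response, passed. Its level went from 7.52, 7.50 and 7.20 to 8.36, 8.60 and 8.39 in wild type. The mutant read 7.63, 7.89 and 7.57 untreated and 7.6, 7.87 and 7.29 with Congo Red. No mutant culture rose, and the interaction was -1.15 ± 0.13 (SE; limma adjusted p = 0.00967). NCA3 (YJL116C), of the SUN family of wall proteins, read 5.74, 6.06 and 5.53 and then 6.64, 6.56 and 6.30 in wild type, against 4.87, 5.02 and 5.06 and then 4.62, 4.87 and 4.6 in the mutant. It moved up in every wild type culture and down in every mutant culture, and its -40.2% was the lowest mutant share of a wild type change. AFB1 (YLR040C), predicted to be anchored at the cell surface and named for its action on the a-factor pheromone, read 8.60, 8.66 and 8.05 untreated and 9.94, 9.92 and 9.72 with Congo Red in wild type. The mutant was at 6.03, 5.88 and 5.21 and then 5.7, 5.7 and 5.49. Untreated levels already differed by -2.73, and levels with Congo Red by -4.23.

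**Figure D3:**
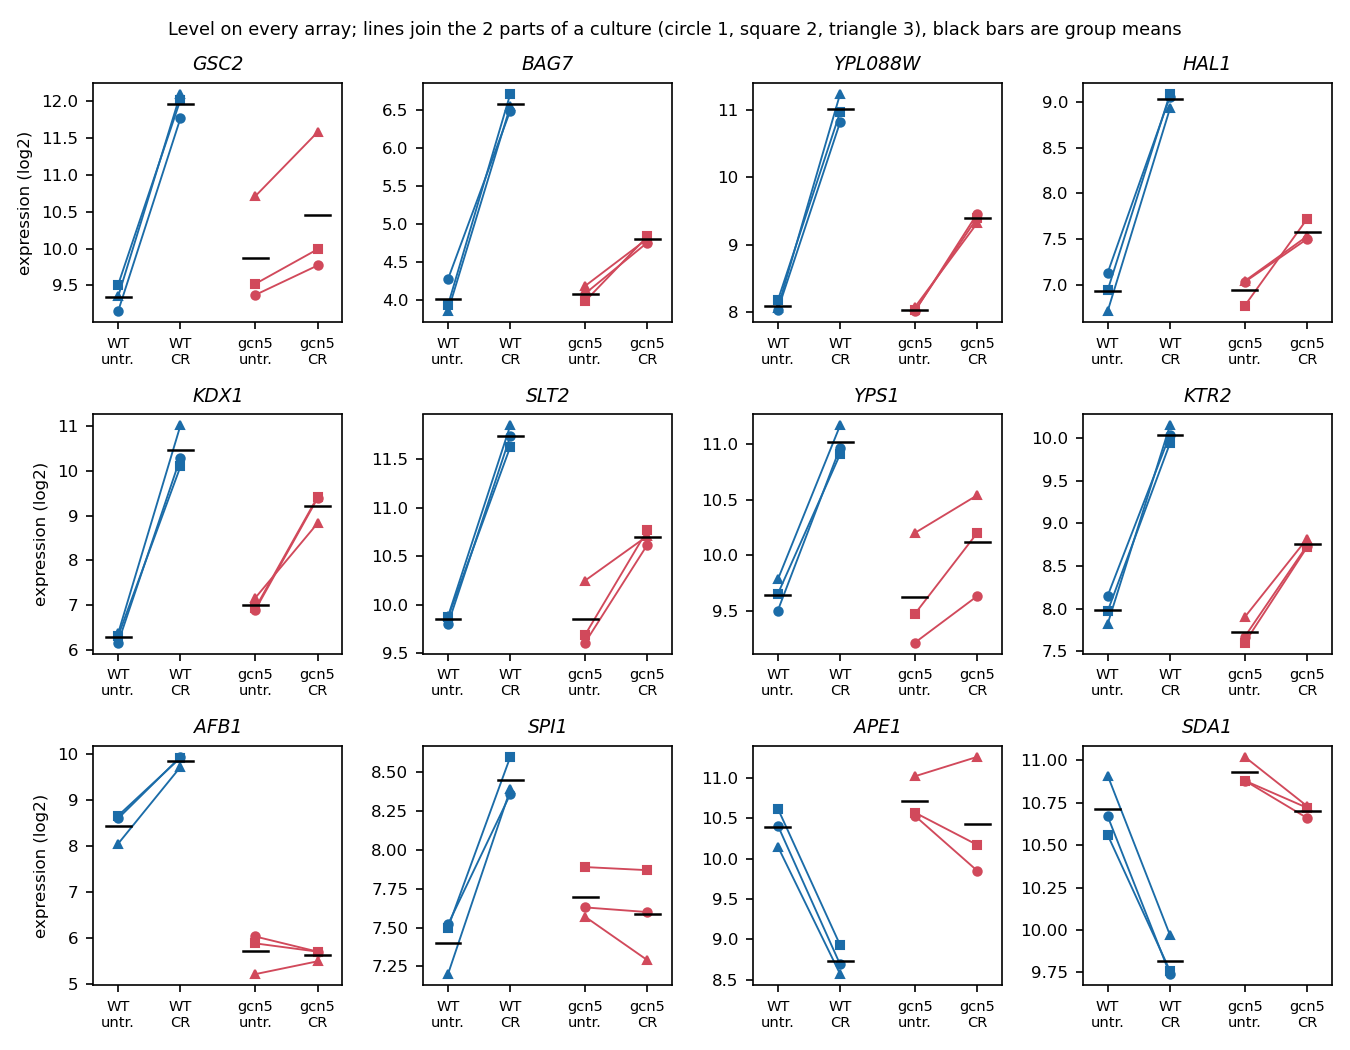
Expression level (y axis, log2, a scale of its own for each gene) of 12 genes that passed on all 12 arrays: wild type (WT, blue) and gcn5 mutant (red), untreated (untr.) and with Congo Red (CR). Lines join the untreated and treated array of a culture; mutant culture 3 (triangles) stands above cultures 1 and 2 for GSC2 and YPS1 without and with Congo Red, and the slopes are steeper in wild type for all 12 genes.

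No gene of chitin synthesis passed out of 15, and the median interaction was -0.28. The catalytic subunit gene CHS3 changed by 0.94 in wild type and 0.60 in the mutant (interaction interval -0.63 to -0.05). CHS7, needed to export Chs3 from the endoplasmic reticulum, changed by 0.84 and 0.45 (-0.64 to -0.13), and PCM1, of the path to the chitin precursor, by 1.17 and 0.69 (-0.77 to -0.19). GFA1, the first enzyme of that path, changed by 1.42 and 0.98 (-0.79 to -0.09). In each strain 7 of the 15 rose, beside 12.3% of all genes in wild type and 2.81% in the mutant.

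A further 8 genes with an interaction below -0.9 have varied roles, and YPL088W and CRG1 among them are also members of the cell wall integrity response list. YPL088W, a putative aryl alcohol dehydrogenase gene, rose 7.59-fold in wild type and 2.57-fold in the mutant. Its untreated arrays lay between 8.01 and 8.17 in both strains. With Congo Red it read 10.82, 10.97 and 11.24 in wild type, against 9.46, 9.40 and 9.32 for the mutant, and the interaction was -1.56 ± 0.13 (SE; limma adjusted p = 0.00274). HAL1 (YPR005C), which promotes salt tolerance, read 7.13, 6.94 and 6.71 and then 9.06, 9.09 and 8.93 in wild type. Its mutant values were 7.03, 6.77 and 7.04 and then 7.50, 7.72 and 7.53. The untreated arrays overlapped and the treated arrays of the strains were over 1 log2 unit apart, with an interaction of -1.46 ± 0.15 (SE; limma adjusted p = 0.00922). HAL1 was the 1 passing gene of 22 in osmotic and salt tolerance, where the median interaction was -0.22.

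CRG1 (YHR209W), a methyltransferase gene, rose from 7.09, 7.28 and 7.10 to 10.38, 10.61 and 10.80 in wild type. The mutant rose from 7.97, 8.07 and 7.98 to 10.25, 10.17 and 9.62. It therefore started higher and ended lower, and 58.4% was the largest mutant share among the 26 weaker rises. YSR3 (YKR053C), a sphingoid base phosphatase gene, went from 7.18, 7.32 and 8.29 to 8.53, 8.52 and 9.45 in wild type. The mutant went from 7.49, 7.38 and 7.61 to 7.19, 7.10 and 7.82. All wild type cultures rose by more than 1 unit, and 2 of the 3 mutant cultures fell. NQM1 (YGR043C), a paralogue of the transaldolase gene TAL1, read 7.18, 7.41 and 7.13 and then 8.16, 8.36 and 8.0 in wild type, against 7.27, 7.24 and 8.19 and then 7.09, 7.17 and 8.26 in the mutant. The wild type change was 0.94 and the mutant change -0.06, with mutant culture 3 high without and with Congo Red. With HAL1 and SPI1, YSR3 and NQM1 passed in 5 of the 6 fits without 1 culture.

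RTA1 (YGR213C), which encodes a membrane protein linked to sterol resistance, rose 3.57-fold in wild type and 1.61-fold in the mutant, and mutant levels with Congo Red (6.17 to 7.0) stayed below wild type levels (7.18 to 7.85). YPK2 (YMR104C), a protein kinase gene with a known part in wall integrity, rose 4.04-fold and 1.92-fold. Its treated levels were 8.22 to 8.69 in wild type and 7.66 to 8.15 in the mutant, so the groups were close but did not overlap. PDE1 (YGL248W), a cyclic AMP phosphodiesterase gene, read 8.91 to 9.11 and then 9.90 to 10.16 in wild type, and 8.95 to 9.33 and then 9.03 to 9.44 in the mutant. Its mutant change was 0.08, with all 3 mutant cultures below the smallest wild type change.

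Smaller differences passed for YKE4, a zinc transporter gene (1.38 in wild type, 0.54 in the mutant), YIL108W, a putative metalloendopeptidase gene (1.30 and 0.49), and ATP22, needed to translate a mitochondrial ATP synthase mRNA (1.06 and 0.25). They also passed for YMR315W, an oxidoreductase gene (1.05 and 0.21), SDS24, linked to cell separation (0.84 and 0.14), and IAH1, an ester hydrolase gene (0.58 and -0.13). YPK2, EXG2, YIL108W, IAH1, SDS24 and YMR315W-A passed in none of the 6 fits without 1 culture. SLT2, YPS1, YPS6, NCA3, YKE4, YMR315W, SDA1, FAF1 and YLR363W-A passed in only 1 of them. APE1, ATP22, CRG1, KDX1 and PDE1 passed in 2, and AFB1, KTR2 and RTA1 in 3. YMR315W-A, the next gene to YMR315W, lay below log2 4 on all untreated arrays and on all mutant arrays, between 3.18 and 3.87. It was read above the floor only in wild type with Congo Red, at 4.68, 4.04 and 4.52. The log2 mean of these 3 arrays was 1.33-fold above the floor, and the array at 4.04 lay close to it. It entered the test only through those 3 arrays, and with values under 4 set to 4 it did not pass (limma adjusted p = 0.257).

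The 4 weaker falls included 2 genes of ribosome assembly. SDA1 (YGR245C), needed for the large subunit, fell from 10.67, 10.56 and 10.91 to 9.74, 9.76 and 9.97 in wild type. In the mutant it read 10.88, 10.88 and 11.02 and then 10.66, 10.72 and 10.73. Every treated mutant array was above every treated wild type array, and the interaction was 0.66 ± 0.10 (SE; limma adjusted p = 0.0285). FAF1 (YIL019W), needed for the small subunit, fell by 1.04 in wild type, from 8.62, 8.29 and 8.88 to 7.54, 7.33 and 7.79. Its mutant values were 8.58, 8.59 and 9.07 and then 8.19, 8.27 and 9.12, and mutant culture 3 moved by 0.05 (interaction 0.82 ± 0.13, SE; limma adjusted p = 0.0413).

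APE1 (YKL103C), the vacuolar aminopeptidase, had the largest interaction above 0, at 1.38 ± 0.21 (SE; limma adjusted p = 0.0285). Wild type went from 10.41, 10.62 and 10.15 to 8.69, 8.93 and 8.57, a 3.17-fold fall. The mutant went from 10.53, 10.57 and 11.02 to 9.85, 10.17 and 11.26, so 2 mutant cultures fell and culture 3 rose. YLR363W-A read 9.46, 9.30 and 9.41 and then 8.57, 8.71 and 8.70 in wild type, against 9.29, 9.33 and 8.46 and then 9.41, 9.34 and 8.61 in the mutant. It fell in every wild type culture and in no mutant culture.

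The gene lists put these genes beside others of their kind. Of 29 cell wall integrity response genes 6 passed below 0 (GSC2, YPL088W, BAG7, CRG1, KDX1 and SLT2), 0 above, and 23 did not pass, beside 0.486% of all genes below 0. The list's median change was 1.52, 1.36 and 1.60 in wild type cultures 1, 2 and 3 and 0.97, 0.96 and 0.82 in the mutant cultures. In wild type 27 of the 29 rose, beside 12.3% of all genes, and in the mutant 24 rose and 1 fell, beside 2.81% and 1.16% of all genes. This list was drawn up with earlier results of these arrays known, so its count is not independent evidence of direction. The same holds for the counts of the other lists, those of ribosome biogenesis and general stress included.

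Of 77 ribosome biogenesis genes 76 had an interaction above 0, where 53.6% of all genes were below it, 2 passed (SDA1 and FAF1) and 75 did not, with a median of 0.28 beside -0.02 over all genes. The list's median change was -0.38, -0.43 and -0.64 in the wild type cultures and -0.14, -0.25 and -0.13 in the mutant cultures, so the strains did not overlap. In wild type 67 of the 77 fell, beside 11.5% of all genes, and in the mutant 1 fell, beside 1.16%. The methyltransferase gene RRP8 changed by -0.81 in wild type and -0.20 in the mutant, with an interaction interval of 0.34 to 0.88. ENP2 and NOP13 had intervals of 0.29 to 0.78 and 0.24 to 0.74. None of these 3 passed (limma adjusted p = 0.067, 0.084 and 0.101). The 122 ribosomal protein genes, many of them near-identical pairs that probe sets may not separate, had median changes of -0.07 and -0.06 and a median interaction of 0.01, with none passing.

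Of 40 general stress genes 37 had an interaction below 0, beside 53.6% of all genes, and 1 passed, SPI1. The list's median change was 0.32, 0.29 and 0.62 in the wild type cultures against -0.10, -0.08 and 0.31 in the mutant cultures, where culture 3 of both strains was highest and the strains overlapped. In wild type 17 of the 40 rose, beside 12.3% of all genes, and in the mutant 2 of the 40 rose, beside 2.81% of all genes. NTH1, a trehalase gene, changed by 1.06 and 0.38 (interaction interval -0.99 to -0.35), and TFS1 by 0.52 and -0.19 (-1.09 to -0.33). Of 18 targets of calcineurin, the calcium-activated phosphatase, 2 passed below 0, GSC2 and YPS1, and the median interaction was -0.24. CMK2, RCN2 and ORM2 of that list had intervals of -0.89 to -0.35, -1.23 to -0.42 and -0.74 to -0.27 and did not pass.

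Of 26 genes of the unfolded protein response 22 were below 0, beside 53.6% of all genes, and none passed, with YET3 nearest (0.78 in wild type, 0.15 in the mutant, limma adjusted p = 0.067). NCA3 was the 1 passing gene of 17 in cell separation, and BAG7 the 1 of 4 Rho1 GTPase-activating proteins. No member passed among 55 Gcn4-activated amino acid genes, 23 SAGA and ADA subunits, 23 phosphate genes, 32 mating genes, 27 G1/S genes, 10 histone genes, 30 iron uptake genes, 28 ergosterol genes, 33 glucose-repressed genes, 19 genes of glycolysis, 42 of the respiratory chain and 12 seripauperins, which have near-identical copies. Their median interactions ran from -0.16 for the glucose-repressed genes and the seripauperins to 0.11 for the phosphate genes. None passed either among 21 markers of alpha cells and sporulating diploids, with a median of -0.07. The meiotic gene SPO11 of that list rose in wild type cultures 1 and 2, from 4.56 and 4.68 to 6.53 and 6.47, but read 4.24 and 4.73 in culture 3 and between 4.73 and 5.15 on all mutant arrays.

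**Figure D4:**
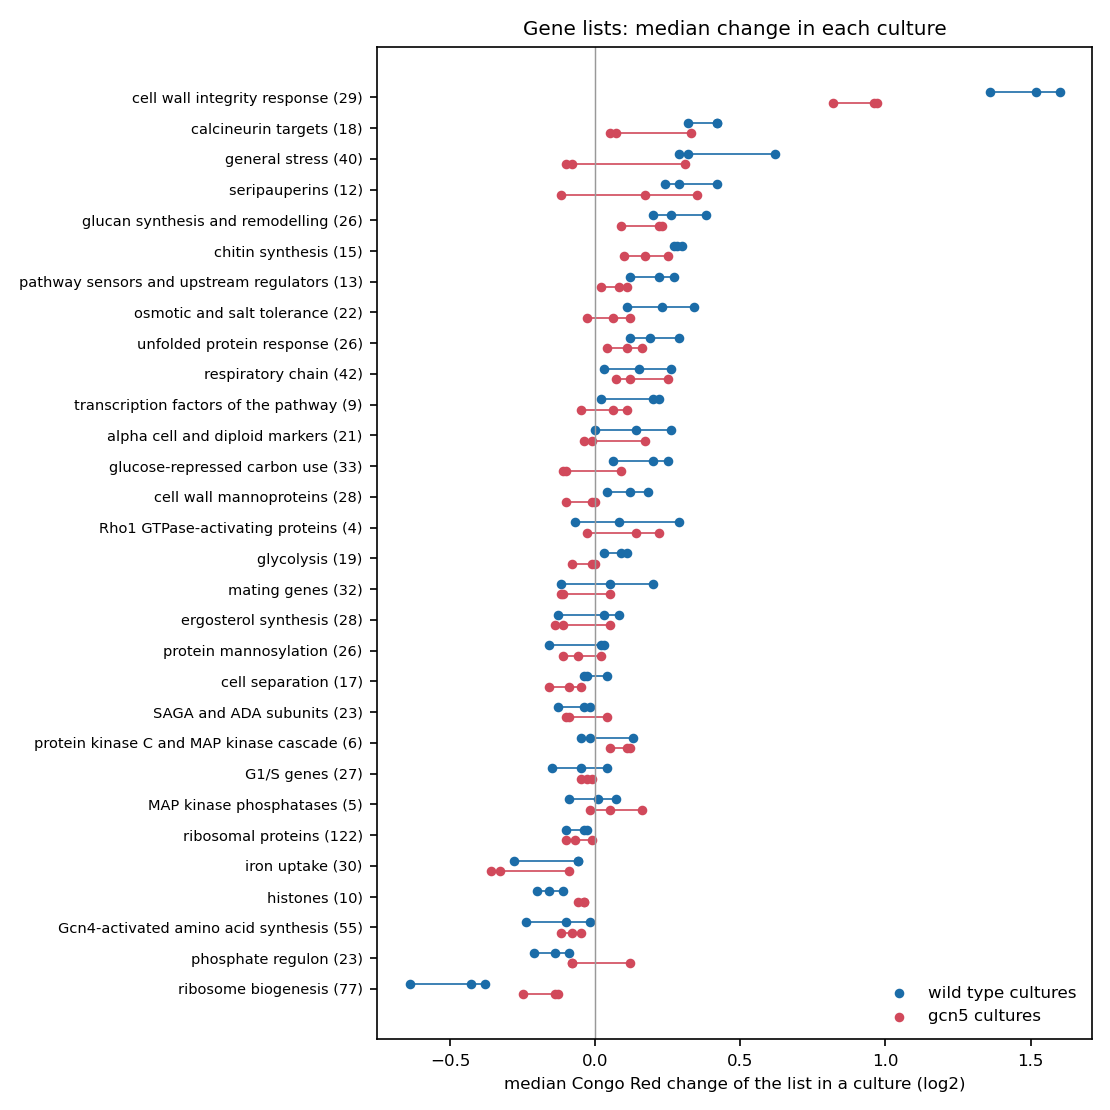
Median change with Congo Red of each of 30 gene lists (x axis, log2) in each of the 3 wild type cultures (blue) and 3 gcn5 cultures (red); the number of genes tested is in brackets and lines join the lowest and highest culture. The cell wall integrity response lies between 1.36 and 1.60 (wild type) and between 0.82 and 0.97 (mutant), and ribosome biogenesis between -0.64 and -0.38 (wild type) and between -0.25 and -0.13 (mutant).

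To ask whether responding genes as a whole moved less in the mutant, genes were chosen on the mean change over both strains. With equal numbers of cultures that mean does not fix the sign of the interaction, unlike a choice made on the wild type response. The mean change passed for 1346 genes, 25.2% of those tested, 630 rises (11.8%) and 716 falls (13.4%). The rise was smaller in the mutant for 554 of the 630 (87.9%), and the fall was smaller for 567 of the 716 (79.2%), while 53.6% of all genes tested had an interaction below 0. The rises had a median of 0.51, 0.45 and 0.53 in the wild type cultures and 0.24, 0.24 and 0.29 in the mutant cultures. The falls had a median of -0.31, -0.35 and -0.50 in wild type, against -0.22, -0.25 and -0.19 for the mutant. Each mutant culture was thus closer to 0 than each wild type culture in both sets. Genes within a culture share its arrays, so these shares are descriptions and carry no test. All 30 genes that passed the interaction were among the 1346, 26 with the rises and 4 with the falls.

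The gap in log2 units grew with the size of the rise up to a mean change of 2. As a share of the wild type median, however, the mutant median was larger in the classes of larger rises. For mean rises up to 0.5 (446 genes) the median change was 0.40 in wild type and 0.20 in the mutant. Between 0.5 and 1 (144 genes) it was 0.87 and 0.48, and between 1 and 2 (31 genes) 1.49 and 0.93. Above 2 there were 9 genes, too few to set a trend, with medians of 2.90 and 2.22. Among falls the median change was -0.37 and -0.20 for the 646 genes down to a mean of -0.5, and -0.71 and -0.45 for the 67 between -0.5 and -1. The share with a smaller change in the mutant was 87.0%, 90.3% and 93.5% in the first 3 classes of rises and 79.7% and 74.6% in these 2 classes of falls.

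**Figure D5:**
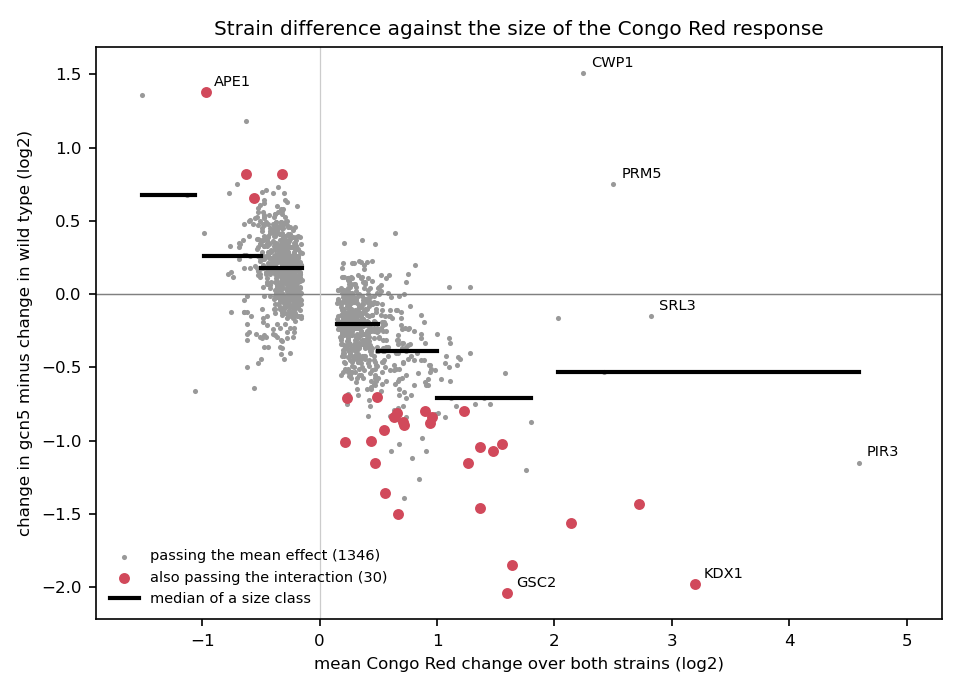
Change in gcn5 minus change in wild type (y axis, log2) against the mean change over both strains (x axis, log2) for the 1346 genes that passed the mean effect (grey), with the 30 that also passed the interaction in red and the median of each size class as a black bar. The bars lie above 0 for falls and below 0 for rises, at -0.20, -0.39, -0.71 and -0.53 with growing rise; CWP1 and PRM5 lie above 0.

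The largest responses to Congo Red did not all follow this order. PIR3, a wall protein gene with the largest mean rise, went from 6.51, 7.11 and 6.51 to 11.73, 11.88 and 12.02 in wild type and from 6.59, 6.86 and 5.6 to 11.32, 10.95 and 8.82 in the mutant. The 3 mutant changes were below the wild type ones, but culture 3 was far below the other mutant cultures, and the interaction of -1.15 (95% interval -1.93 to -0.36) had an adjusted p = 0.173 (limma). SRL3 rose by 2.90 in wild type and 2.75 in the mutant, an interval of -0.63 to 0.33, and the mating projection gene AFR1 by 2.11 and 1.95, an interval of -0.54 to 0.21. These intervals allow a reduction of up to 0.63 and 0.54 and a gain of up to 0.33 and 0.21.

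CWP1, a mannoprotein gene of the wall, was the reverse of the general pattern in value. Wild type read 11.61, 11.67 and 11.15 and then 13, 12.96 and 12.92, and the mutant 10.24, 10.03 and 7.69 and then 12.77, 12.62 and 11.56. Every untreated mutant array was below every untreated wild type array, and treated mutant arrays were still below but closer. The mutant change was larger by 1.51 (95% interval 0.76 to 2.26, limma adjusted p = 0.0951). PRM5, a target of the cell integrity pathway, read 9.55, 9.51 and 9.28 and then 11.55, 11.52 and 11.64 in wild type, against 7.76, 7.97 and 7.71 and then 10.90, 11.02 and 10.16 in the mutant. The 3 mutant changes of PRM5 were all above the wild type ones, by 0.75 on average (0.32 to 1.19, limma adjusted p = 0.128). Without gcn5 culture 3 both genes passed, CWP1 at 1.07 and PRM5 at 0.97 (limma adjusted p = 0.0373 each). Both also passed on all 12 arrays with a trend in the prior variance, and without both cultures numbered 3.

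PST1, a further wall protein gene, had changes of 1.85 in wild type against 1.31 in the mutant, PRM10 of 2.24 against 1.36 and YNR065C of 2.35 against 1.16, none of them passing (limma adjusted p = 0.164, 0.0655 and 0.0655). Among the deepest falls by the mean change, YBL100W-A fell by 2.19 in wild type and by 0.83 in the mutant (interaction interval 0.79 to 1.94, limma adjusted p = 0.0655). It belongs to a Ty retrotransposon, and its probe set may also read other copies of the element. SHU2, a recombination repair gene, changed by -1.47 and -0.79. WSC4, of the wall sensor family, changed more in the mutant, by -0.73 in wild type and -1.40 in the mutant (interval -1.10 to -0.23, limma adjusted p = 0.164), from untreated levels of 7.18 to 8.34 in wild type and 7.81 to 9.77 in the mutant.

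At the threshold stood YKE4, the last gene to pass, at -0.84 and an adjusted p of 0.0484, and NAT5, the first that did not, at 0.57 and an adjusted p of 0.0555. A further 55 genes had an adjusted p from 0.05 up to 0.1, 39 with an interaction below 0 and 16 above. The 95% interval of the interaction extended 0.29 to either side for the median gene. An exact permutation test of 3 cultures against 3 cannot give a two-sided p under 0.1 for any single gene, so the calls rest on the spread that limma shares across genes. In cultured populations a smaller rise per cell and fewer cells that respond cannot be told apart.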

How the data were processed

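Total RNA was measured on 12 Affymetrix arrays. For each probe set the authors deposited a log2 value; the submitters' processing notes name GCRMA, without a version. GCRMA models background from probe sequence and normalizes arrays by quantiles, so a shift of all transcripts together would not be seen. That the scale is log2 was taken from the range of values, 2.45 to 14.34. No intensities or detection calls were used. Precision is limited by how few arrays there are.

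Platform annotation gave 1 symbol for 5498 probe sets and none for 218; 12 symbols were updated through RefSeq genes (assembly R64). For 47 genes with several probe sets the brightest was kept. The fit used limma 3.58.1 in R 4.3.3 (lmFit, eBayes) on 6 cultures and a Congo Red term for each strain, with 4 residual degrees of freedom. SE is limma's, and intervals are 95% t intervals. The script was tested on simulated data.

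Equal numbers within a strain were taken to mark 1 divided culture. Deviations of such arrays from group means correlated at 0.531 to 0.839 in the 6 pairs. For different numbers of a strain the correlations were -0.736 to 0.331. Arrays of equal number in different strains, which cannot come from 1 culture, reached 0.551. The correlations therefore cannot tell a divided culture from anything else that arrays of 1 number share. Deviations from a group mean also sum to 0, so high correlations within pairs force low ones elsewhere. The labels do not state this pairing within a strain, and nothing in them ties a number across strains. Alternatives were other blocks, each culture left out, median centring, other filters, a floor, separate probe sets and a trended prior; leaving out both cultures numbered 3 was added after seeing the data. Members and lists were chosen with earlier results of these data known. The text may name passing genes, the 15 largest rises and 8 largest falls by mean change, up to 5 members of each list by p, and genes whose call changes under an alternative. NAT5, STE2, STE3, SAG1, MF(ALPHA)1, MF(ALPHA)2, IME2, NDT80 and SPS4 were also named, for the threshold and the cell type check. This was outside that rule and after their values were seen. No list was tested as a set.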

Additional observations from a re-analysis of the deposited data

Results flagged for a closer look

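For 30 genes the test of the difference between the strains' Congo Red effects passed, and each is given here with its interaction, the mutant change minus the wild type change in log2 units. Among genes of signalling the values were -1.98 for KDX1, -1.85 for BAG7, -1.07 for YPK2, -1.04 for SLT2 and -0.93 for PDE1. Genes of the wall and cell surface had -2.04 for GSC2, -1.5 for AFB1, -1.15 for SPI1, -1.02 for KTR2, -1.01 for NCA3, -0.88 for YPS1, -0.87 for EXG2 and -0.80 for YPS6. Membrane and transport genes had -1.36 for YSR3, -1.15 for RTA1 and -0.84 for YKE4. For genes of metabolism and other roles they were -1.56 for YPL088W, -1.46 for HAL1, -1.43 for CRG1, -1.0 for NQM1, -0.89 for YMR315W-A, -0.84 for YMR315W, -0.81 for ATP22, -0.80 for YIL108W, -0.71 for IAH1 and -0.70 for SDS24. The values above 0 were 0.66 for SDA1, 0.82 for YLR363W-A, 0.82 for FAF1 and 1.38 for APE1. YMR315W-A is included only through its treated wild type arrays. Its other values lay under log2 4, and its interaction was -0.41 (limma adjusted p = 0.257) with those set to 4. Single genes were not searched for arrays that lie apart, because each group holds 3.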

How the results depend on the processing

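The direction of the interaction held for 80 named genes under 16 alternatives in 1272 of 1277 values. The exceptions were SRL3, from -0.28 to 0.10 without 1 culture and 0.20 without both cultures numbered 3, GCN5, from -0.58 to 0.04 without 1 culture, and AFR1 at 0.06 and OPT1 at -0.00 without both cultures numbered 3. Other blocks, other filters, separate probe sets and a trended prior could not change the interaction value of a named gene. Their part of the 1277 values therefore says nothing about how stable a direction is. Only leaving out cultures, centring arrays or setting a floor could reverse it. Leaving out cultures could do so only where the changes of the strains overlapped. They overlapped for none of the 30 genes that passed, so for these the fits without cultures are no check of direction either. The number of calls depended on how the spread was estimated. With no replicate block 3 genes passed the interaction, 3 below 0 and 0 above, and 494, 62 and 534 passed in wild type, in the mutant and on the mean, with 92.1% of falls smaller in the mutant. With the replicate number as the block 7 passed (7 below, 0 above), 847 in wild type and 107 in the mutant, with 84.1% of falls smaller. The culture as a random block gave 69 (52 and 17), a stricter filter at log2 6, with fewer genes tested, 53 (45 and 8), and a trended prior 95 (66 and 29) with 343 in the mutant. Without both cultures numbered 3 there were 47 (41 below 0), 345 in the mutant and 68.1% of falls smaller. Without 1 culture, and so with fewer samples, calls ran from 3 to 33 (3 to 27 below, 0 to 6 above), from 744 to 1465 in wild type, from 29 to 269 in the mutant and from 874 to 1336 on the mean, with 79.0% to 90.5% of rises and 72.7% to 86.8% of falls smaller in the mutant. For the other changes the cause was not tested. Centring arrays left 26 genes (22 and 4), losing EXG2, SLT2, YKE4 and YMR315W-A, and no filter, a floor and separate probe sets left 29 each. Genes near log2 4, such as BAG7 untreated and YMR315W-A, have little signal over background.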
